A study of Mus musculus with 8 samples.

Results

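The tumour necrosis factor (TNF) superfamily ligands and receptors outside the TNF, lymphotoxin, LIGHT and RANK groups were followed in CCR6+ group 3 innate lymphoid cells (ILC3s) of the mouse large intestine. The list was set by gene name and holds 35 genes, 13 ligands and 22 receptors, all found among the 27179 rows of the count table. RNA was sequenced from sorted ILC3s of 8 C57BL/6 mice at steady state, 1 library per mouse. In 4 KO mice (Zbtb46 f/f with a Cre recombinase, replicates 5 to 8) the Cre deleted the floxed Zbtb46, and 4 WT mice (Zbtb46 f/f, replicates 1 to 4) carried the same floxed alleles without the Cre. The sort kept CD127+ CCR6+ cells with high CD90 and dim CD45 and removed cells that stained for surface proteins of T, B, NK or myeloid cells. Age and sex are not in the labels. The design asks which transcripts differ in these cells when the transcription factor Zbtb46 is missing.

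TNF superfamily ligands are mostly trimers on the cell surface that bind receptors on a neighbouring cell. Costimulatory receptors such as OX40, 4-1BB and GITR recruit TRAF adaptors and activate NF-kB, while death receptors such as Fas and the TRAIL receptor carry a death domain that can start apoptosis through caspase 8. Mouse lymphoid tissue inducer cells, the relatives of CCR6+ ILC3s, are known for carrying OX40 ligand and CD30 ligand, which help memory T cells survive.

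Libraries held 25328231 to 33760743 counts, so a count of 0, taken as fewer than 3 counts, allows 0.0856 to 0.124 CPM (counts scaled to library size with TMM factors). This limit covers counting error alone, since cDNA was amplified with a low-input kit without molecular identifiers. Zbtb46 had 0.125 to 4.82 CPM in KO libraries and 8.02 to 88.9 CPM in WT libraries. All 10 ILC3 markers were present in every library, among them Ccr6 at 74.4 to 340 CPM in KO and 72.8 to 157 CPM in WT. Some libraries stood apart in markers of other cells. Macrophage and neutrophil markers (8 genes) summed to 335 and 731 CPM in KO replicates 5 and 7, against 0.993 to 43.9 CPM in the other libraries. Most of these sums was S100a8 (238 and 316 CPM) and S100a9 (94.1 and 359 CPM). Lyz2 had 0.114 and 35.4 CPM there, and Csf1r 0 and 0.125 CPM. Stromal and endothelial markers (6 genes, Cdh5 at 0 throughout) summed to 417 CPM in KO replicate 7 and 772 CPM in WT replicate 1, and epithelial markers (7 genes) to 1293 CPM in WT replicate 2. The sum in WT replicate 1 was mostly Dcn (687 CPM), with Pdgfra at 0, and that in KO replicate 7 mostly Col3a1 (244 CPM) and Dcn (133.5 CPM). The epithelial sum was mostly Muc2 (724 CPM), Lgals4 (388 CPM) and Epcam (137 CPM), with Cdh1 and Vil1 at 0.0414 CPM. KO replicate 6 had the fewest genes above 3 counts, 8329, where the others had 8473 to 10176.

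In CCR6+ ILC3s the share of the listed genes present in every library was close to that over all rows of the table. At a threshold of 1 CPM, 6 of the 35 genes were present in all 8 libraries (2 ligands and 4 receptors), 16 in 1 to 7 libraries and 13 in none. Of all rows of the table, 17.0% reached 1 CPM in all 8 libraries, close to the 17.1% of these genes. In 1 to 7 libraries it was 45.7% of these genes and 28.2% of all rows, and in none 37.1% and 54.8%. The 6 were the ligand genes Tnfsf8 (CD30 ligand) and Tnfsf4 (OX40 ligand) and the receptor genes Tnfrsf9 (4-1BB), Tnfrsf18 (GITR), Tnfrsf25 (DR3) and Cd40. They belong to 6 different ligand and receptor pairs, so in no pair were both partners at 1 CPM or more in all libraries. Each KO library and each WT library had 11 to 15 of the 35 genes at 1 CPM or more.

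**Figure D1:**
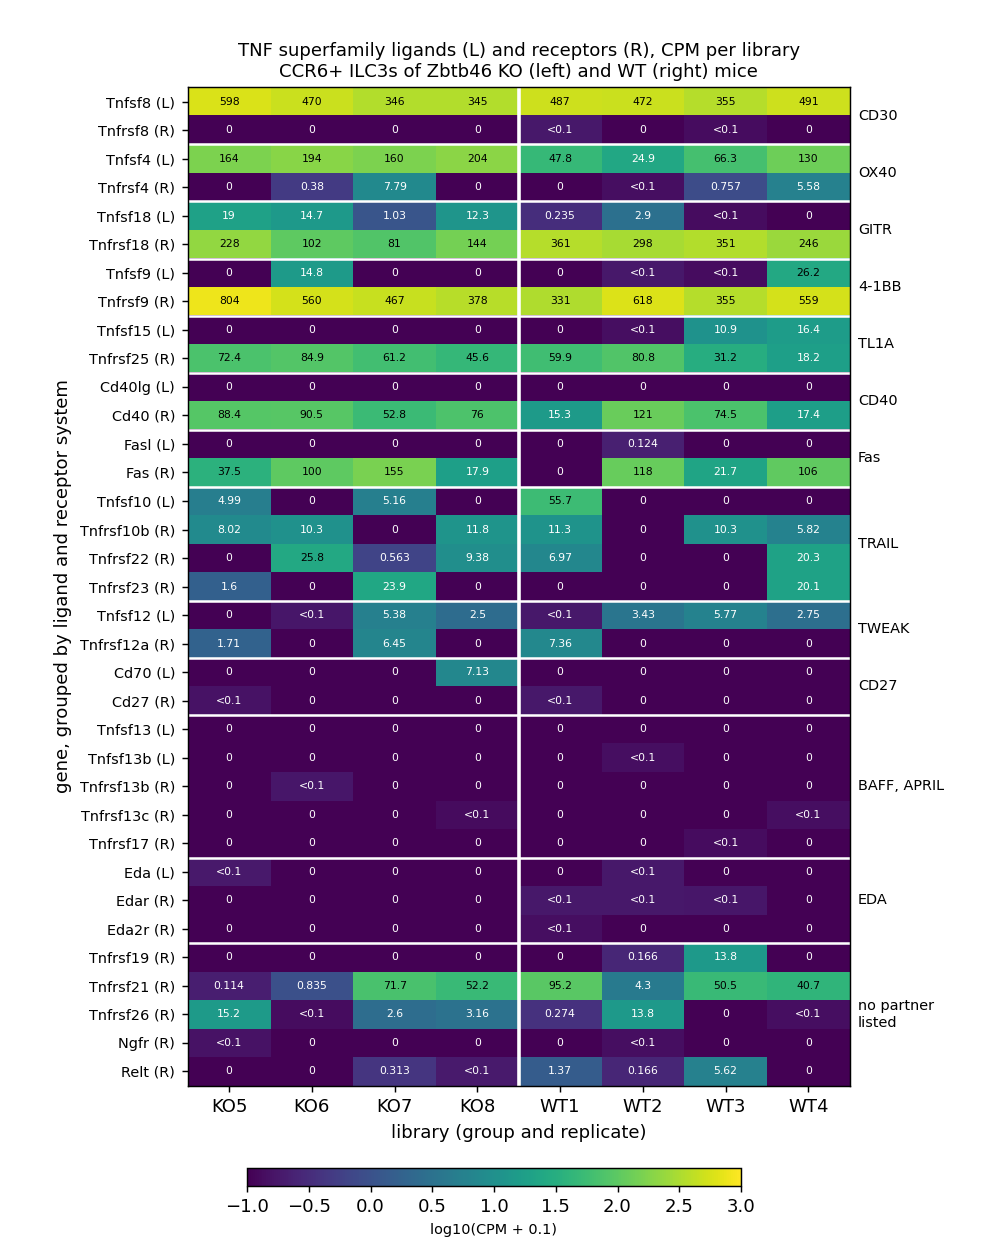
CPM of the 35 genes (rows, by ligand and receptor system, L for ligand and R for receptor) in the 8 libraries (columns, KO left of WT), coloured by log10(CPM + 0.1). The bright rows are Tnfsf8, Tnfsf4, Tnfrsf18, Tnfrsf9, Tnfrsf25 and Cd40, Fas is bright in 7 of 8 libraries, and the BAFF, APRIL and EDA systems are dark throughout.

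Levels of different genes were compared only as CPM per kilobase of the longest GENCODE transcript that has a RefSeq mRNA. On that scale Tnfrsf9 came first with a median level of 243 over the 8 libraries (156 to 380), then Tnfrsf18 with 199.6 (68.1 to 304) and Tnfsf8 with 124 (90.6 to 157). Tnfsf4 followed with 78.6 (13.5 to 111), Tnfrsf25 with 36.5 (10.98 to 51.1) and Cd40 with 25.2 (5.11 to 40.6). Over the 8 libraries each gene's range overlapped that of the next, so no pair of neighbours in this order was apart in all libraries. The order differed between the groups. In KO the medians per kilobase were 242.7 for Tnfrsf9, 107 for Tnfsf8, 104 for Tnfrsf18 and 97.1 for Tnfsf4. In WT they were 216 for Tnfrsf9, 126 for Tnfsf8, 273 for Tnfrsf18 and 30.97 for Tnfsf4, so Tnfrsf18 came first. Fas had a median of 46.4 over all libraries, between Tnfsf4 and Tnfrsf25, but its range ran from 0 to 104.5.

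**Figure D2:**
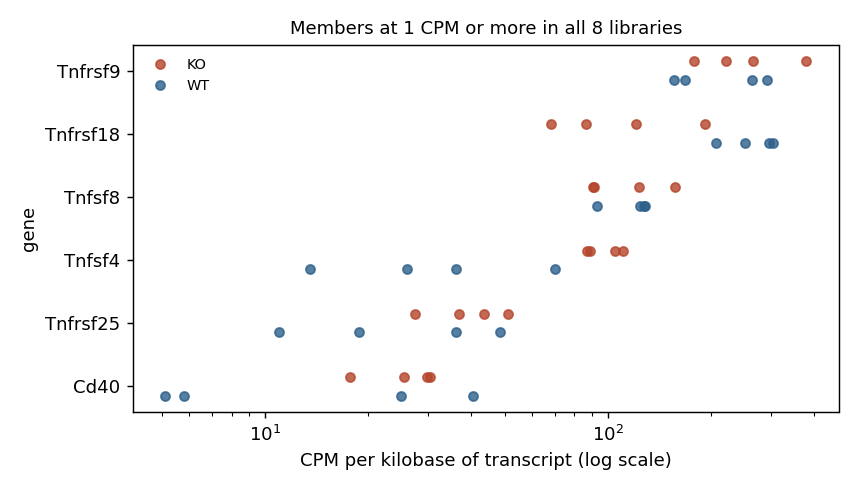
CPM per kilobase of transcript (horizontal axis, log scale) in each library for the 6 genes present in all 8 libraries, KO points above WT points. Tnfrsf9 ranges from 156 to 380 and Cd40 from 5.11 to 40.6, and only Tnfsf4 and Tnfrsf18 show KO and WT points that do not interleave.

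Between KO and WT no gene of the family passed the threshold of edgeR, and in 2 genes the libraries of the groups did not overlap. The ligand gene Tnfsf4 was higher in all 4 KO libraries than in any WT library, and the receptor gene Tnfrsf18 was lower in all 4. Of the 35 genes, 14 passed the expression filter and were tested. The other 21 were low or had counts in too few libraries. Tnfsf10, for instance, had 55.7 CPM in WT replicate 1 but 0 counts in 5 libraries. edgeR's quasi-likelihood test called 0 of the 14 at an adjusted p under 0.05, as it called 0.0% of the 8878 genes tested. At an unadjusted p under 0.05 it found 2 of the 14, Tnfsf4 and Tnfrsf18, and 364 genes in all, while limma-voom called 0 family genes and DESeq2 called 1. The p-values measure the spread between single mice, with that of library preparation in it. The groups did not overlap in these same 2, 14.3% of the 14, where 4.36% of all tested genes showed no overlap. Fitted values were higher in KO for 10 of the 14 and lower for 4, with a median log2 fold (KO over WT) of 0.35 beside 0.02 over all tested genes. In these sorted bulk samples, fewer cells that express a gene and less RNA per cell cannot be told apart.

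Tnfsf4 (Entrez ID 22164, chromosome 1, 161395438 to 161418206 in GRCm38.p6) encodes OX40 ligand, which costimulates T cells through OX40. It had 164, 194, 159.9 and 204 CPM in KO replicates 5 to 8, and 47.8, 24.9, 66.3 and 129.7 CPM in WT replicates 1 to 4. The lowest KO library thus lay above the highest WT library. The means were 180.3 ± 21.8 CPM in KO and 67.2 ± 45.0 CPM in WT (SD, n = 4 each), and the spread was wider in WT (66.9% of the mean) than in KO (12.1%). edgeR fitted a log2 fold of 1.42 ± 0.47 (SE), a fold of 2.68, with an adjusted p of 0.885. Tested alone, the exact two-sided permutation p was 0.0286, the smallest that 4 against 4 libraries allow. Any gene whose groups are apart gets this p, so it adds nothing to the lack of overlap. Without WT replicates 1 and 2, the libraries highest in stromal and epithelial markers, the log2 fold was 0.87, and without KO replicates 5 and 7, the highest in macrophage and neutrophil markers, it was 1.57. The part of those cells in the Tnfsf4 values was not tested.

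The ligand gene next to it, Tnfsf18 (Entrez ID 240873, chromosome 1, 161494657 to 161505290), lies 76.4 kb from Tnfsf4 with no annotated gene between them. It encodes the ligand of GITR. Its level was low, at 19.01, 14.7, 1.03 and 12.3 CPM in KO replicates 5 to 8 and 0.235, 2.90, 0.0360 and 0 CPM in WT replicates 1 to 4. In 3 KO libraries it was above every WT library, while KO replicate 7 was below WT replicate 2. The means were 11.7 ± 7.66 CPM in KO and 0.792 ± 1.41 CPM in WT (SD, n = 4 each). The fitted log2 fold was 3.88 ± 2.03 (SE) with an adjusted p of 1.00 in edgeR, and the exact two-sided permutation p was 0.0571. The fold rests on few WT counts: the fitted value was 6.96 without WT replicate 2 and 9.02 without WT replicates 1 and 2. Fasl, the gene of Fas ligand, lies 275.4 kb further along chromosome 1 and had 0 counts in KO libraries and 3 counts in WT libraries, all in replicate 2.

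Tnfsf8 (Entrez ID 21949, chromosome 4, 63831202 to 63861508) encodes CD30 ligand, which binds CD30 on activated lymphocytes. It had 598, 469.9, 346 and 345 CPM in KO replicates 5 to 8, and 487, 472, 355 and 491 CPM in WT replicates 1 to 4. The groups overlapped, with means of 439.9 ± 121 CPM in KO and 451 ± 64.8 CPM in WT (SD, n = 4 each). The log2 fold was -0.04 ± 0.24 (SE). Its neighbour Tnfsf15, 86.1 kb away with no gene between, encodes TL1A, the ligand of DR3. Tnfsf15 was listed at 0 in all 4 KO libraries and in WT replicate 1, had 1 count in WT replicate 2, and 10.9 and 16.4 CPM in WT replicates 3 and 4. Tnfsf15 did not pass edgeR's filter, and DESeq2 called it lower in KO with an adjusted p of 0.035. That was the 1 call of DESeq2 among the 17 family genes to which it gave an adjusted p, and it called 3.26% of all genes with one. The call rests on 2 of the 4 WT libraries.

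Of the other ligand genes, Cd70 reached 1 CPM in 1 library, Tnfsf9 in 2, Tnfsf10 in 3 and Tnfsf12 in 5. Tnfsf10 encodes TRAIL, which can kill cells through its death receptor. It had 4.99, 0, 5.16 and 0 CPM in KO replicates 5 to 8, and 55.7 CPM in WT replicate 1 but 0 in WT replicates 2 to 4. WT replicate 1 alone carried most of it, and that library also had the highest stromal and endothelial sum, 772 CPM. The part of those cells in Tnfsf10 was not tested. The groups overlapped, with an exact two-sided permutation p of 1.00. Tnfsf9, the 4-1BB ligand gene, had 14.8 CPM in KO replicate 6 and 26.2 CPM in WT replicate 4, and at most 0.0827 CPM elsewhere. It overlaps Gm11110, which shares 11.5% of its 50-base words and had 0 to 12 CPM in KO and 3.43 to 27.6 CPM in WT. Cd70, whose product binds CD27, had 7.13 CPM in KO replicate 8 and 0 counts in the other 7 libraries. Tnfsf12, the gene of TWEAK, had 0 to 5.38 CPM in KO and 0.0783 to 5.77 CPM in WT, with at least 1 CPM in 2 KO and 3 WT libraries. Its span lies inside that of the readthrough gene Tnfsfm13, which the table lists at 0.

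Among the receptors, Tnfrsf18 (Entrez ID 21936, chromosome 4, 156026322 to 156028894) was the one whose groups lay apart. It encodes GITR, a costimulatory receptor best known from regulatory T cells and also found on innate lymphoid cells. It had 229, 102.5, 81.0 and 144 CPM in KO replicates 5 to 8, and 361, 299, 351 and 246 CPM in WT replicates 1 to 4. Every KO library lay below every WT library, and KO replicate 5 came closest to the WT range. The means were 139 ± 65.2 CPM in KO and 314 ± 53.1 CPM in WT (SD, n = 4 each). edgeR's log2 fold was -1.18 ± 0.35 (SE), a fold of 0.442, with an adjusted p of 0.71. The exact two-sided permutation p was again 0.0286, which follows from the lack of overlap. With library totals alone, without TMM factors, the groups overlapped. The antisense gene Gm16008 spans Tnfrsf18, and 18.2% of the 50-base words of the Tnfrsf18 transcript also occur in it, but Gm16008 itself had at most 0.0414 CPM.

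Markers of other lymphoid cells that can carry GITR or OX40 ligand were read beside these 2 genes. T cell markers (9 genes) summed to 87.3 to 249.9 CPM in KO and 73.4 to 204 CPM in WT, and 4 of the 9 (Cd3e, Cd5, Cd8a and Trdc) were under 1 CPM in every library. Trbc1 at 30.8 to 53.1 CPM in KO and 11.5 to 62.7 CPM in WT, and Trbc2 at 34.5 to 94.1 CPM in KO and 27.3 to 105.7 CPM in WT, were in all libraries. Trac had 0 to 54.8 CPM in KO and 0 to 22.6 CPM in WT. Cd3g had 0 to 54.4 CPM in KO and 0 to 60.9 CPM in WT, and Cd3d 0.0380 to 15.8 CPM in KO and 0 to 15.4 CPM in WT. NK cell and ILC1 markers (7 genes) summed to 189 to 574 CPM in KO and 49.8 to 248 CPM in WT. Ncr1 had 148 to 447 CPM in KO and 0.0391 to 198 CPM in WT. It made up most of the sum in each KO library and in WT replicate 4, but not in WT replicates 1, 2 and 3. Klrb1c was in all libraries at 13.7 to 46.2 CPM in KO and 24.4 to 48.2 CPM in WT, while Prf1 and Eomes were under 1 CPM in each. Ccl5 had 0 to 104.7 CPM in KO and 0.0393 to 12.3 CPM in WT. Gzmb had 0.0626 to 34.0 CPM in KO and 0.548 to 39.1 CPM in WT, and Tbx21 0 to 11.3 CPM in KO and 0 to 3.64 CPM in WT. The ILC2 markers (5 genes) summed to 273 to 411 CPM in KO and 47.2 to 249 CPM in WT. These 2 ranges did not overlap. Most of the ILC2 sum was Areg, at 272 to 409 CPM in KO and 45.8 to 211 CPM in WT. Klrg1 reached 27.9 CPM in KO and 36.7 CPM in WT, Il5 1.44 CPM in KO and 15.2 CPM in WT, Il1rl1 1.51 CPM in KO and 0.0721 CPM in WT, and Il13 stayed at or under 0.228 CPM. Their part in the Tnfsf4 and Tnfrsf18 values was not tested.

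Tnfrsf4, the OX40 gene, lies 9.7 kb from Tnfrsf18 and was near absent. It had 0, 0.38, 7.79 and 0 CPM in KO replicates 5 to 8, and 0, 0.0414, 0.757 and 5.58 CPM in WT replicates 1 to 4. KO replicate 7 and WT replicate 4 alone reached 1 CPM, while the OX40 ligand gene Tnfsf4 reached it in all libraries. Tnfrsf4 also had 10 counts in KO replicate 6 and 21 counts in WT replicate 3. The fitted log2 fold was 0.36 ± 2.301 (SE) and turned to -3.62 without KO replicate 7.

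**Figure D3:**
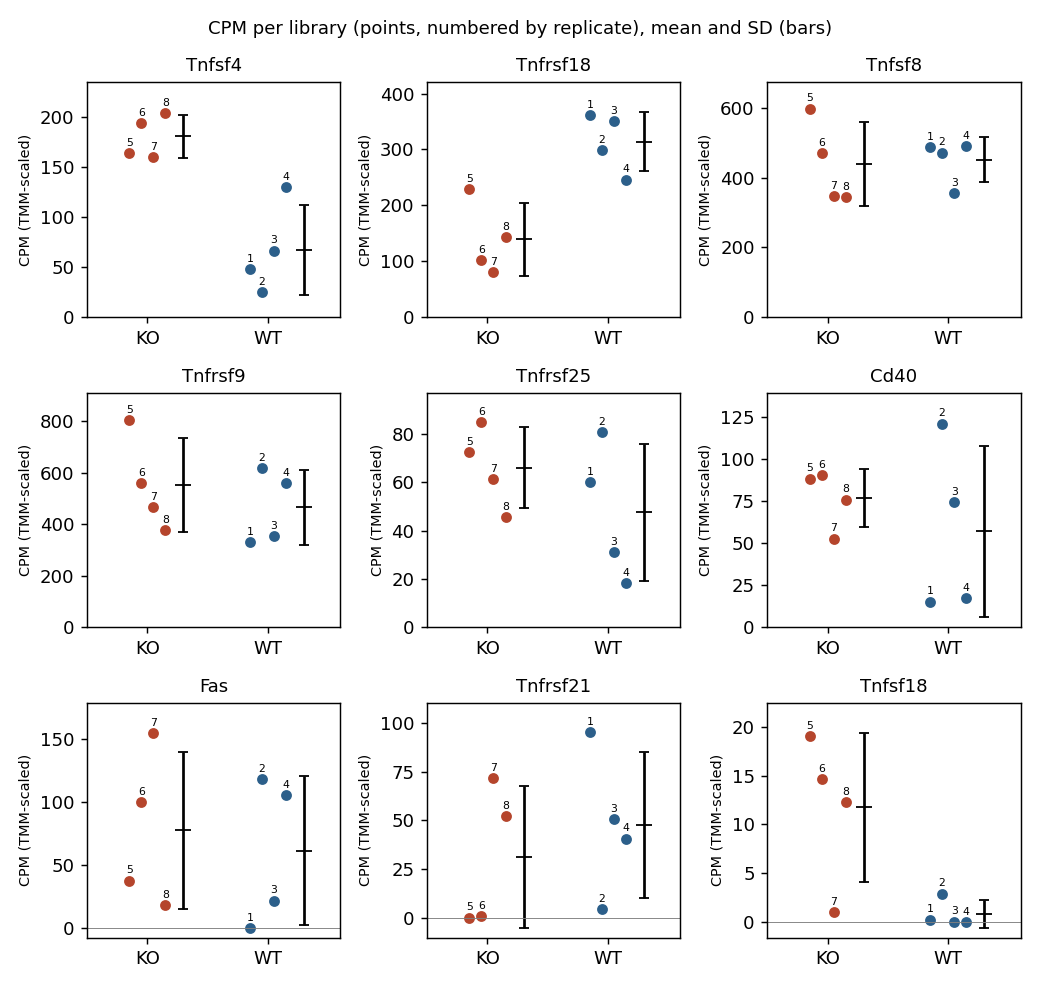
CPM of 9 genes in each library (points numbered by replicate, KO left, WT right), with the mean and SD of each group as bars beside the points. KO points lie above WT points in Tnfsf4 (159.9 to 204 against 24.9 to 129.7 CPM) and below them in Tnfrsf18 (81.0 to 229 against 246 to 361 CPM), and overlap in the other 7 genes.

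Tnfrsf9 (Entrez ID 21942, chromosome 4, 150920155 to 150946104) encodes 4-1BB, an activation-induced costimulatory receptor. It had 804, 559.7, 467 and 378 CPM in KO replicates 5 to 8, and 331, 618, 355 and 559 CPM in WT replicates 1 to 4. KO replicate 5 was highest and the groups overlapped. The means were 552 ± 184 CPM in KO and 466 ± 144 CPM in WT (SD, n = 4 each), with a log2 fold of 0.25 ± 0.30 (SE).

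Tnfrsf25 (Entrez ID 85030, chromosome 4, 152115528 to 152120119) encodes DR3, the receptor of TL1A. It had 72.4, 84.9, 61.2 and 45.6 CPM in KO replicates 5 to 8, and 59.9, 80.8, 31.2 and 18.2 CPM in WT replicates 1 to 4. WT replicates 3 and 4 were the lowest, and the groups overlapped. The log2 fold was 0.47 ± 0.58 (SE).

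Cd40 (Entrez ID 21939, chromosome 2, 165055614 to 165071654) encodes a receptor through which T cells license antigen-presenting cells. It had 88.4, 90.5, 52.8 and 76.0 CPM in KO replicates 5 to 8, and 15.3, 121, 74.5 and 17.4 CPM in WT replicates 1 to 4. WT libraries spread over a range that enclosed all KO values. The log2 fold was 0.43 ± 0.69 (SE), and it was 1.105 without WT replicate 2, the highest library, and 0.111 without WT replicate 1, the lowest. The transcript of its ligand, Cd40lg, had 0 counts in all 8 libraries. B and plasma cell markers (8 genes, 4 of them under 1 CPM in every library) summed to 21.3 to 90.03 CPM in KO and 8.92 to 140.3 CPM in WT. Igkc reached 33.4 CPM in KO and 114 CPM in WT, and Jchain 58.9 CPM in KO and 22.2 CPM in WT. Cd79b had 0.0313 to 23.8 CPM in KO and 0 to 22.3 CPM in WT, and Mzb1 reached 0.0939 CPM in KO and 4.07 CPM in WT. Dendritic cell markers (7 genes) summed to 524 to 1082 CPM in KO and 498 to 783 CPM in WT. Of these Ccr7, Batf3 and Xcr1 were in all libraries, Ccr7 at 392 to 922 CPM in KO and 365 to 675 CPM in WT, while Flt3, Itgax, Clec9a and Siglech were under 1 CPM in each. The part of these cells in Cd40 was not tested.

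The transcripts of Fas, DR6 and the TRAIL death receptor varied widely from library to library. That of DR3 (Tnfrsf25) was in all 8 libraries, at 45.6 to 84.9 CPM in KO and 18.2 to 80.8 CPM in WT. Fas (Entrez ID 14102, chromosome 19, 34290647 to 34327775) had 37.5, 99.95, 155 and 17.9 CPM in KO replicates 5 to 8, and 0, 118, 21.7 and 106 CPM in WT replicates 1 to 4. It was thus present in 7 libraries and absent from the counts of WT replicate 1. The log2 fold was 0.33 ± 1.41 (SE). Tnfrsf21 encodes DR6, a death domain receptor. It had 0.114, 0.835, 71.7 and 52.2 CPM in KO replicates 5 to 8, and 95.2, 4.30, 50.5 and 40.7 CPM in WT replicates 1 to 4. KO replicates 5 and 6 were below 1 CPM, and the groups overlapped, with a log2 fold of -0.61 ± 1.52 (SE). Tnfrsf10b, the TRAIL death receptor gene, had 0 to 11.8 CPM in KO and 0 to 11.4 CPM in WT, with 0 in KO replicate 7 and WT replicate 2, a log2 fold of 0.13 ± 2.00 (SE).

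Tnfrsf22 and Tnfrsf23 lie 16.1 kb apart on chromosome 7 and encode mouse decoy receptors for TRAIL. Their transcripts share sequence: 28.1% of the 50-base words of Tnfrsf22 and 33.4% of those of Tnfrsf23 occur in another gene, above all in each other. The longest run that their coding sequences share is 102 bases, shown in capitals with 30 bases on each side in lower case, from the GENCODE transcripts of GRCm38, because a read from within it cannot be assigned to 1 gene.
Tnfrsf22: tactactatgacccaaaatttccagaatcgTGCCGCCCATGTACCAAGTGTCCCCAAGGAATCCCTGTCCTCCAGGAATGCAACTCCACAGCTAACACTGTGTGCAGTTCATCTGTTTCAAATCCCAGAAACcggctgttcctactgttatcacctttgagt
Tnfrsf23: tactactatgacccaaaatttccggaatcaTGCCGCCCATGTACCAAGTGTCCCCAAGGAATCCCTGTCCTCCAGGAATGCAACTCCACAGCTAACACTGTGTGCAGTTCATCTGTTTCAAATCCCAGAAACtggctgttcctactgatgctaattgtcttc
The shared run is bases 421 to 522 of the coding sequence of Tnfrsf22 and bases 391 to 492 of that of Tnfrsf23.

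Tnfrsf22 had 0, 25.8, 0.563 and 9.39 CPM in KO replicates 5 to 8, and 6.97, 0, 0 and 20.3 CPM in WT replicates 1 to 4. Tnfrsf23 had 1.598, 0, 23.9 and 0 CPM in KO replicates 5 to 8, and 0, 0, 0 and 20.1 CPM in WT replicates 1 to 4. Only WT replicate 4 had both above 10 CPM. In KO replicates 6 and 7, 1 of the pair was at 25.8 or 23.9 CPM while the other was at 0 or 0.563 CPM, although the sources used here do not say how the authors counted shared reads.

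The remaining receptors were present in a few libraries. Tnfrsf26 had 15.2, 0.0380, 2.60 and 3.16 CPM in KO replicates 5 to 8, and 13.8 CPM in WT replicate 2 with at most 0.274 CPM in the other WT libraries. Tnfrsf19, also called TROY, had 13.8 CPM in WT replicate 3 and at most 0.166 CPM elsewhere. Tnfrsf12a, the receptor gene for TWEAK, had 1.71 and 6.45 CPM in KO replicates 5 and 7, 7.36 CPM in WT replicate 1, and 0 counts in the other 5 libraries. KO replicate 7 and WT replicate 1 were also the libraries with the highest stromal and endothelial sums, 417 and 772 CPM, and the part of those cells in Tnfrsf12a was not tested. Relt had at most 0.313 CPM in KO and 0 to 5.62 CPM in WT. All 12 family genes with a mean of 1 to 20 CPM had a library at 0 counts, as did 74.3% of the 5611 genes of the table at that level.

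**Figure D4:**
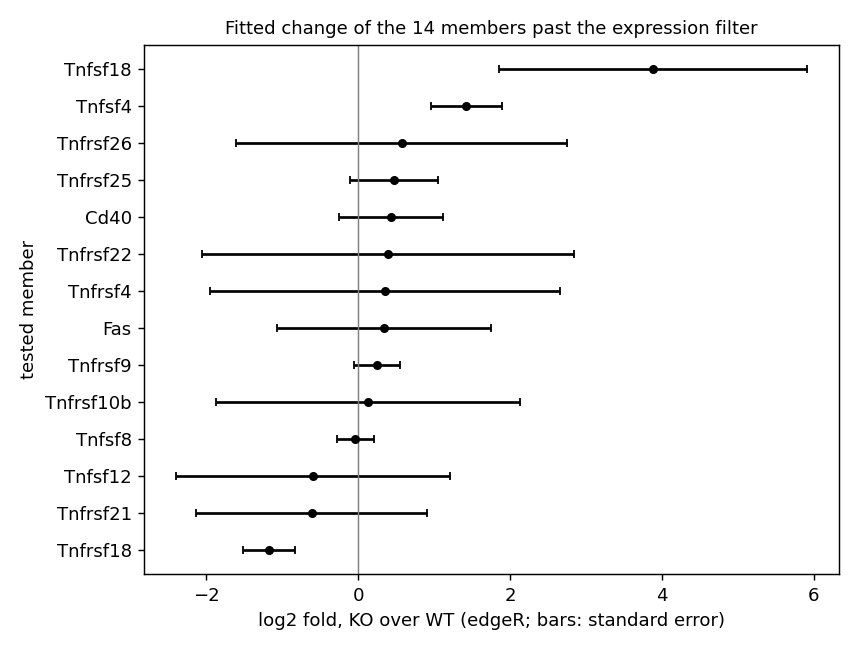
Fitted log2 fold (KO over WT, horizontal axis) with its standard error for the 14 genes past the expression filter, from edgeR. Tnfsf18 (3.88) and Tnfsf4 (1.42) lie to the right, Tnfrsf18 (-1.18) to the left, and the bars of 11 of the 14 genes cross 0.

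The systems that serve B cells and skin appendages were at the limit of detection. BAFF (Tnfsf13b) and APRIL (Tnfsf13) and their receptors TACI (Tnfrsf13b), BAFF receptor (Tnfrsf13c) and BCMA (Tnfrsf17) support B cell and plasma cell survival. Ectodysplasin (Eda) and its receptors (Edar, Eda2r) direct hair and tooth development. With Tnfrsf8 (CD30), Cd27, Ngfr, Fasl and Cd40lg they make up the 13 genes under 1 CPM everywhere. None of the 13 exceeded 3 counts in any library or 0.124 CPM, and the highest total over the 8 libraries was 6 counts, for Edar. Tnfsf13 and Cd40lg had no count at all. Tnfsf13 lies wholly inside Tnfsfm13 and the antisense gene Tnfsf13os, both also at 0, and the rule for reads on several genes is likewise not stated. Cd27 lies inside the span of E130112N10Rik, which had 7.54 CPM in KO replicate 8 and at most 0.0380 CPM elsewhere. A 0 in this table bounds the counted reads rather than the RNA.

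Downstream signalling genes were largely present and did not pass the threshold either. Of 24 genes for TRAF adaptors, kinases, caspases and inhibitors of apoptosis, 16 had at least 1 CPM in all 8 libraries, 6 in some and 2 in none, among them the EDAR adaptor gene Edaradd. Of the 18 tested, 11 had higher and 7 lower fitted values in KO, with a median log2 fold of 0.10 beside 0.02 over all tested genes. edgeR called 0 of the 18 at an adjusted p under 0.05. At an unadjusted p under 0.05 it found 2 of the 18 (Birc3 and Chuk) and 364 of all 8878 tested genes. In none of the 18 were the groups apart, where 4.36% of all tested genes showed no overlap. DESeq2 and limma-voom called 0 of the signalling genes. The 4 with the smallest p were Birc3, Chuk, Traf1 and Cflar, with adjusted p values of 1.00 in edgeR. Birc3, an inhibitor of apoptosis that acts with TRAF2, had 187 ± 50.8 CPM in KO and 315 ± 78.6 CPM in WT, and Chuk, the kinase of the alternative NF-kB pathway, 101.4 ± 53.5 CPM in KO and 228 ± 75.2 CPM in WT (SD, n = 4 each). Traf1, an adaptor of 4-1BB, had 194 ± 74.6 CPM in KO and 139.8 ± 65.1 CPM in WT, and Cflar, which holds caspase 8 in check, 54.6 ± 25.02 CPM in KO and 30.4 ± 23.4 CPM in WT (SD, n = 4 each). Traf5 and the death receptor adaptor genes Fadd and Tradd did not pass the expression filter and were not tested. Tradd had 19.3 CPM in KO replicate 5 and 11.8 CPM in KO replicate 7.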

How the data were processed

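RNA of CCR6+ ILC3s from 8 mice was sequenced from SMARTer low-input libraries, per the labels' protocols. The authors deposited whole-number read counts per gene in 1 table. The submitters' processing notes name CASAVA 1.8.2, STAR 2.3.0 and mm10. The sources used here do not give the counting tool, the annotation, strand or the handling of shared reads. Rows without a gene symbol (1904 rows, 0.303% of counts) were kept in the scaling and the fit. Counts were scaled by TMM and tested with edgeR 4.0.16 (quasi-likelihood, filter by group, Benjamini-Hochberg adjustment over all tested genes, threshold 0.05), in R 4.3.3 with limma 3.58.1. KO was compared with WT, with no covariate. CPM are TMM-scaled. The exact two-sided permutation test used mean log2(CPM + 1), for genes averaging 10 CPM or more in a group. Its p-values were not adjusted. Those not given above were 0.686 for Tnfsf8, 0.486 for Tnfrsf9, 0.257 for Tnfrsf25, 0.343 for Cd40, 0.543 for Fas and 0.314 for Tnfrsf21. Alternatives were DESeq2 1.42.0, limma-voom with quality weights, other scalings and filters, and left-out libraries. The edgeR step was tested on simulated data. Genes averaging 10 CPM or more in a group, or with groups apart, were given by library, and the 4 signalling genes with the smallest p were named. The members and lists were chosen with earlier results of these data known. Positions come from RefSeq (GRCm38.p6), transcripts from GENCODE, and shared words are 50 bases long. The driver of the Cre and some marker and signalling genes are not reported here.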

Additional observations from a re-analysis of the deposited data

Results flagged for a closer look

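A set was the 4 libraries of a gene with a mean of 1 CPM or more, in KO or in WT. Of 39 sets examined, 12 had a single library far from the other 3. For normally distributed values the rule would flag about 1 in 20 sets, or 1.95. Most flagged sets held libraries without a count, so 1.95 is not the chance number for these genes. No share flagged over all genes is given here, so whether 12 is unusual was not tested. In KO the flagged sets included Tnfsf9 at 14.85 CPM in replicate 6 and Cd70 at 7.133 CPM in replicate 8. The other KO sets were Tnfrsf4 at 7.79 CPM and Tnfrsf23 at 23.87 CPM, both in replicate 7. In WT the flagged sets included Tnfsf10 at 55.73 CPM in replicate 1. In WT replicate 4 they were Tnfsf9 at 26.22 CPM, Tnfrsf4 at 5.581 CPM and Tnfrsf23 at 20.12 CPM. Further WT cases were Tnfrsf12a at 7.357 CPM in replicate 1, Tnfrsf19 at 13.84 CPM in replicate 3 and Tnfrsf26 at 13.78 CPM in replicate 2. In these 11 the other libraries of the group had at most 1.598 CPM. Tnfsf8 was the exception, with WT replicate 3 low at 354.6 CPM beside 471.8 to 490.6 CPM in the other WT libraries, and still within the KO range. The high single values rest on 142 to 1424 counts. WT replicate 4 was high for Tnfsf9, Tnfrsf4 and Tnfrsf23, and KO replicate 7 for Tnfrsf4 and Tnfrsf23.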

How the results depend on the processing

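Over all tested genes edgeR called 0, DESeq2 374, edgeR with no filter 2, and leaving out 1 library 0 to 2 (2 without KO replicate 6). Among the family, DESeq2 called 1 gene, Tnfsf15, and every other setting 0. The groups did not overlap in 2 family genes, in 1 with no scaling factors (Tnfsf4), in 2 to 3 when 1 library was left out (Tnfsf18 joined without WT replicate 2 or KO replicate 7), and in 5 without WT replicates 1 and 2. That setting and the one without KO replicates 5 and 7 were chosen after seeing the data. Groups with fewer libraries are apart more readily. Without WT replicates 1 and 2, 19 family genes were tested, where the main fit tested 14. The share over all genes was not computed for these settings. Of 248 refitted log2 folds, 221 kept their direction and 27 turned, none past the threshold. Tnfsf4 (0.87 to 1.96, adjusted p 0.184 to 1.00) and Tnfrsf18 (-1.52 to -0.98, adjusted p 0.155 to 0.975) kept theirs under every setting. The cause of the turns was not tested. Tnfsf8 turned to 0.0535 with no scaling factors and to 0.0518 without WT replicates 1 and 2, where Tnfrsf4 was -0.65, Tnfrsf10b -0.11 and Tnfrsf22 -0.18. Tnfrsf4 was -1.47 in limma-voom. Without WT replicate 1 and KO replicate 6, Tnfrsf22 was -1.002, Fas -0.22 and Tnfrsf21 0.37. Without KO replicates 5 and 7, Tnfrsf4 was -3.05, Fas -0.0542 and Tnfrsf26 -1.11. Leaving out 1 library gave Tnfsf8 -0.22 to 0.0686, Tnfrsf4 -3.62 to 2.91, Tnfrsf10b -0.28 to 0.55, Tnfrsf22 -1.02 to 1.95, Fas -0.24 to 0.86 and Tnfrsf26 -0.85 to 5.60. No paired analysis was possible because the replicate numbers run from 1 to 8 over both groups and none is shared. With 4 libraries a group, genes under 20 CPM were often at 0 in a library, which limits what a fold of such a gene shows.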
